A study of Mus musculus with 3 samples.

Results

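The glycosyltransferases that build the sugar chains of surface proteins and lipids were followed in mouse pro-B cells, B-lineage precursors of the bone marrow, with and without the transcription factor Pax5. The genes were taken by symbol: every gene of the count table whose name begins with Galnt, Gcnt, Mgat, B3gnt, B3galt, B4galt, Fut, St3gal, St6gal or St8sia, which gave 86 of 27179 genes. Of these, 84 encode enzymes or enzyme-like proteins, Fut4-ps1 is a pseudogene and St8sia3os is a long non-coding RNA. RNA sequencing was done on 2 independently prepared Pax5-/- samples, labelled male, and on 1 wild-type sample, labelled female, all of the C57BL/6 strain. All samples came from bone marrow cells that carry B220, a form of CD45 on B-lineage cells, and were expanded on OP9, a stromal feeder line. A harvest at day 7 and removal of IgM+ cells with magnetic beads are stated for the Pax5-/- samples, while neither is stated for the wild type. Sex, these steps and genotype therefore cannot be told apart, and the labels do not say how the Pax5 allele was made, how many mice were pooled or how old they were.

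Sugar chains are assembled stepwise in the Golgi. GALNT enzymes start O-glycans on serine or threonine, and the core 1 and core 2 enzymes extend them. N-glycans arrive as a preformed block, are trimmed by mannosidases and are then branched by MGAT enzymes; B3GNT and B4GALT enzymes lengthen the branches with alternating N-acetylglucosamine and galactose, and fucosyl- and sialyltransferases cap them. In lymphocytes such caps form ligands of selectins, galectins and siglecs, the lectins that guide cell traffic and tune receptor signalling.

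The promoters of the genes with the most extreme wild-type to Pax5-/- contrast, B3gnt8 and Fut7, are shown with those of B4galt4 and Galnt10, the other genes lower in Pax5-/- whose window held a match to the core letters bound by Ebf1, a partner of Pax5 in the B lineage. Each window runs from 250 bases before to 50 bases after the RefSeq start (GRCm38.p6, plus strand); capitals mark the letters CCCNNGGG and CAGCTG.
B3gnt8 chr7:25627374-25627673 (+): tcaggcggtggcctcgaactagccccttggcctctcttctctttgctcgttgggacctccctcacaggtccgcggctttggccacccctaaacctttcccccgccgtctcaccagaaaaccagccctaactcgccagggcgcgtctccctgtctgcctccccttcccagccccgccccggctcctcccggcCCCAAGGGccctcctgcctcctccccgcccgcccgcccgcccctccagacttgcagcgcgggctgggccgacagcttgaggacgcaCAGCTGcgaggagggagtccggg
B4galt4 chr16:38742009-38742308 (+): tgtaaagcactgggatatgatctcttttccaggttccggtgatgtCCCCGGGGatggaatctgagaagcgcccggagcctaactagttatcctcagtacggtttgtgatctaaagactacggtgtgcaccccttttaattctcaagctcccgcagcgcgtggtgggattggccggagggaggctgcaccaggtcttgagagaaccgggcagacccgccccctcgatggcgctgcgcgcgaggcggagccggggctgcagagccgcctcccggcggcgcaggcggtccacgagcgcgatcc
Galnt10 chr11:57645192-57645491 (+): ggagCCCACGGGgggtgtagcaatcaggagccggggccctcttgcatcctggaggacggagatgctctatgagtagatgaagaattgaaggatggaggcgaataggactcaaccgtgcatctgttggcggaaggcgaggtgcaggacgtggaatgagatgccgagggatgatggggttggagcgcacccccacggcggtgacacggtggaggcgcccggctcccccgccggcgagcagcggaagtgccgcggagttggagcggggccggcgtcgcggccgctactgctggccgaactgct
Fut7 chr2:25422992-25423291 (+): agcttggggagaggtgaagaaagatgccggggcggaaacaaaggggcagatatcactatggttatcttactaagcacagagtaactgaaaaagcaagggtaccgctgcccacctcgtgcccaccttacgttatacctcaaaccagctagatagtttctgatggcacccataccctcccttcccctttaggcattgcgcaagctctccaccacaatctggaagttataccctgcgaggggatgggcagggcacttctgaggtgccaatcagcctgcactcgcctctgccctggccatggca

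Promoter windows were found for 63 of the 86 genes, 89 windows in all, and for 15 of the 19 genes that differed between genotypes. CCCNNGGG, which reads the same on both strands, was in 3 of 5 windows of genes lower in Pax5-/- cells, in 1 of 19 windows of genes higher in Pax5-/- and in 13.7% of 32851 promoter windows of the whole annotation. CAGCTG, an E-box that reads the same on both strands, was in 1 of the 5, in 0 of the 19 and in 16.3% of all windows. The E-box CAGGTG, searched with its reverse complement CACCTG, was in 1 of the 5 (B3gnt3), in 6 of the 19 (windows of Fut8, Galnt3, Gcnt1 and St6galnac6) and in 20.2% of all windows. GCGTGAC, part of the sequence that Pax5 binds, searched with its reverse complement GTCACGC, was in no window of the 86 genes and in 2.09% of all windows. Fut7 has 2 windows in the annotation, and neither held a match to any of these. No match overlapped another motif, and a match describes letters, not binding.

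Library totals were 6487846 and 6697879 counts in Pax5-/- cells (samples 1 and 2) and 6530057 counts in wild-type cells. Pax5 itself had 417 and 551 counts in Pax5-/- cells and 1601 in wild-type cells; these sum over all exons, including any that the allele keeps. All 13 pro-B markers were detected in each library, with summed levels of 5167 and 5377 CPM (counts scaled by TMM to the library size) in Pax5-/- cells and 6500 CPM in wild-type cells. Of 9 markers of later or IgM+ B cells, 7 and 5 were detected in Pax5-/- cells (55.0 and 25.8 CPM summed, Ms4a1 and Fcer2a at 0) and 9 in wild-type cells (956 CPM). Neutrophil markers summed to 3.55 and 7.78 CPM in Pax5-/- cells, with 8 of 10 at 0, and to 77.1 CPM in wild-type cells, with 1 of 10 at 0. Monocyte and macrophage markers summed to 177 and 57.7 CPM in Pax5-/- cells and 15.4 CPM in wild-type cells, with 6 of 10 detected in each library and Fcgr1, C1qa and C1qb at 0 in all. Of these sums, Ly6c2 supplied 145.5 and 22.8 CPM in Pax5-/- cells and 4.05 CPM in wild-type cells, and the other 9 genes 31.5 and 35.0 CPM in Pax5-/- cells and 11.4 CPM in wild-type cells. NK markers summed to 38.3 and 43.2 CPM in Pax5-/- cells, with 5 and 4 of 8 detected and Ncr1, Eomes and Tbx21 at 0, and to 4.52 CPM in wild-type cells, with 6 of 8. T-cell markers summed to 43.8 and 47.4 CPM in Pax5-/- cells, with 7 of 10 detected in each and Cd3g and Bcl11b at 0, and to 20.7 CPM in wild-type cells, with 8 of 10 and Cd3e and Cd8a at 0. Most of each sum came from Lat, Zap70 and Cd5. OP9 and fibroblast markers summed to 66.5 and 97.8 CPM in Pax5-/- cells and 49.1 CPM in wild-type cells, with 10 and 8 of 13 detected in Pax5-/- cells, 11 of 13 in wild-type cells and Dcn and Lum at 0 in all. Thy1, also on lymphoid cells, supplied 55.9 and 87.2 CPM in Pax5-/- cells and 18.7 CPM in wild-type cells, while the sum of the other 12 genes was lower in both Pax5-/- samples, at 10.7 and 10.6 CPM in Pax5-/- cells and 30.4 CPM in wild-type cells. Plasmacytoid dendritic cell markers, which include the interferon-response genes Irf7 and Bst2, summed to 1852 and 727 CPM in Pax5-/- cells, with 7 of 8 detected and Klk1 at 0, and to 873 CPM in wild-type cells, with all 8 detected. Bst2 supplied 787 and 126 CPM of these sums in Pax5-/- cells and 263 CPM in wild-type cells. Of the 7 genes tested as described below, 2 were called higher in Pax5-/- cells, 0 lower and 5 neither. The 2 were Siglech (17.75 and 26.73 CPM in Pax5-/- cells, 2.808 CPM in wild-type cells) and Ccr9 (30.87 and 25.85 CPM in Pax5-/- cells, 3.276 CPM in wild-type cells). Pax5-/- sample 1 stood apart in interferon-response genes: Ifit1 was at 209 and 1.47 CPM in Pax5-/- cells (samples 1 and 2) and 18.4 CPM in wild-type cells. The part of these differences in the results below was not tested, and in bulk RNA fewer cells of a type and less RNA per cell cannot be told apart.

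Of the 86 genes, 27 had no count in any library, and 12 more had at most 10 counts per library and were not tested. The other 47 passed the filter on low counts. In Pax5-/- cells 13 rose and 6 fell, 40.4% of those tested, where 18.1% of all 11783 genes tested were called (edgeR's quasi-likelihood F test, adjusted p under 0.05 by Benjamini-Hochberg). The higher genes made up 27.7% of the tested enzymes against 9.53% of all genes, and the lower ones 12.8% against 8.55%. The median log2 fold change, Pax5-/- over wild type, was 0.23 over the 47 genes and 0.01 over all genes tested, and its median size was 0.78 against 0.41. All 19 called genes lay on the same side of the wild type in each Pax5-/- sample alone. The spread comes from the 2 Pax5-/- samples, which were assumed to stand for the lone wild type, and with an assumed biological coefficient of variation of 0.4 only 6 calls were kept: Fut7, B3galt5 and Galnt14 higher, and B3gnt8, B3gnt3 and Galnt10 lower. Those 6 were 12.8% of the 47 genes, beside 10.2% of all genes called under that assumption. The 3 higher and the 3 lower genes were each 6.38% of the 47, beside 5.29% of all genes called higher and 4.95% called lower.

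**Figure D1:**
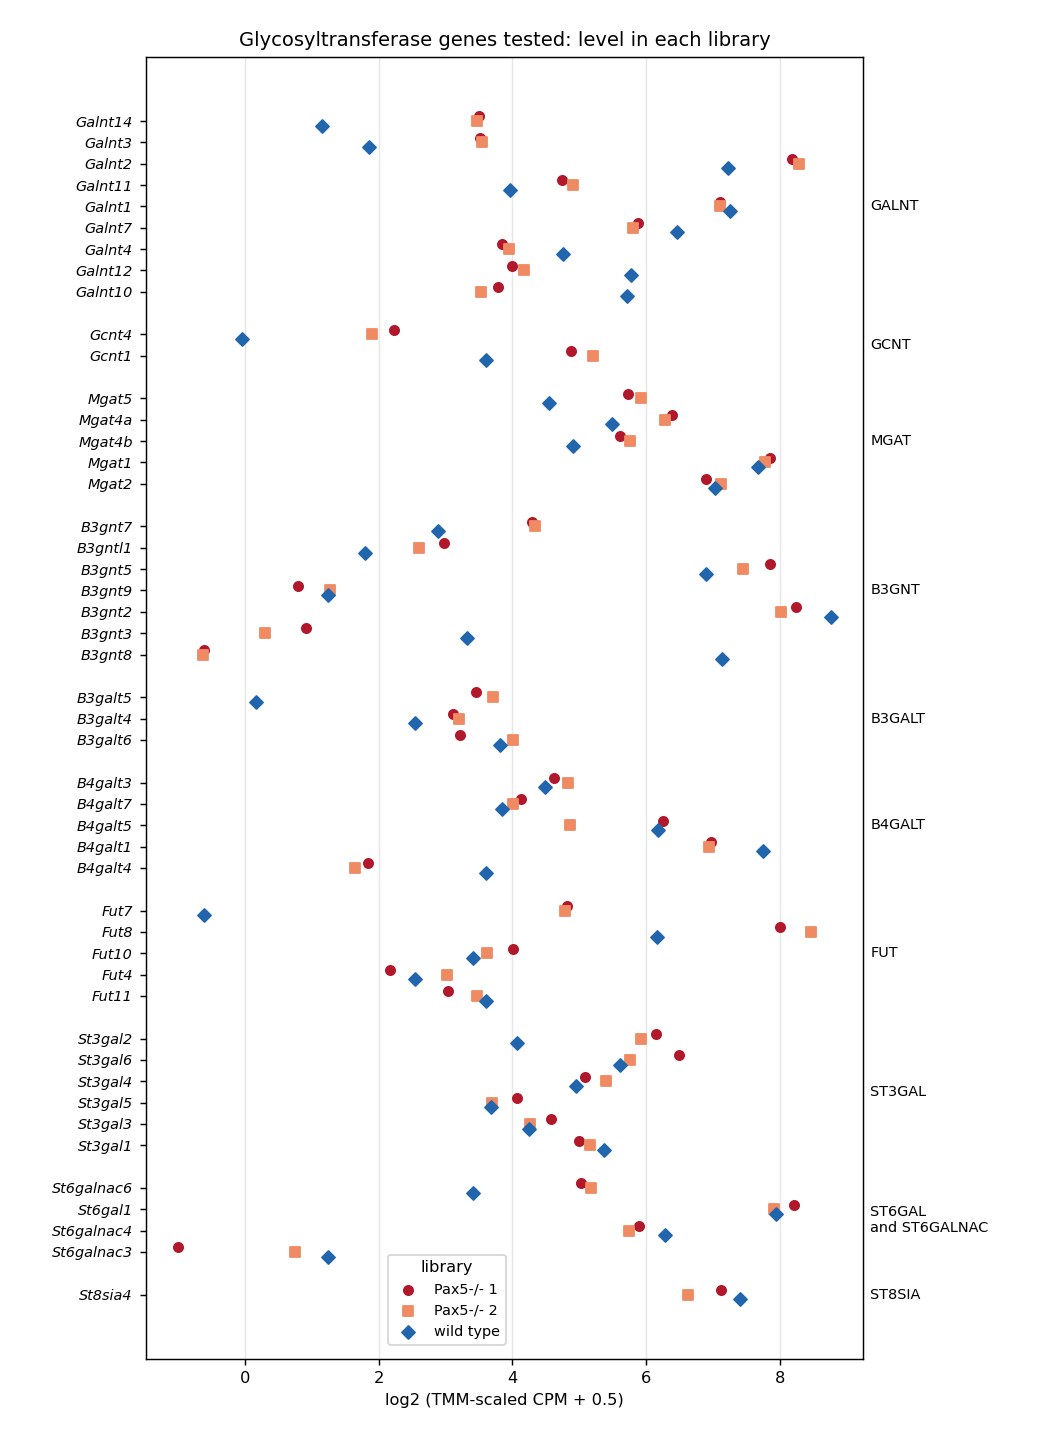
Level of the 47 tested glycosyltransferase genes in each library, as log2 of TMM-scaled CPM plus 0.5, grouped by enzyme class; circles and squares are Pax5-/- samples 1 and 2 and diamonds the wild type. Fut7 and B3gnt8 show the widest separation, in opposite directions. The Pax5-/- points lie close together for most genes. They lie furthest apart for St6galnac3, Fut4 and B3galt6, higher in sample 2, and for B4galt5 and St3gal6, higher in sample 1.

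Summed over all 86 genes, the level per length (CPM per kb of gene length) was 875 and 839 in the Pax5-/- samples and 844 in wild-type cells. The leading gene by its mean over the 3 libraries was B3gnt2, at 107 and 92.0 CPM per kb in Pax5-/- cells and 154 in wild-type cells. After B3gnt2 the order differed by genotype: by the Pax5-/- mean Fut8, Galnt2, Mgat1, St6gal1 and Mgat2 followed, and in wild-type cells B3gnt8 (74.8 CPM per kb), Mgat1, B4galt1, St6gal1 and Mgat2. Some neighbours lie within the spread of the Pax5-/- samples, as Fut8 and Galnt2 do. The wild type lay between the Pax5-/- samples in the total over the 86 genes, while classes within it differed. The fucosyltransferases summed to 85.0 and 110 CPM per kb in Pax5-/- cells and 25.2 in wild-type cells, and the B3GNT genes to 166 and 139 in Pax5-/- cells and 262 in wild-type cells.

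Calls among the O-glycan initiation genes went in both directions. Of 19 GALNT genes 9 were tested, of which 3 rose, 2 fell and 4 were not called. These were 33.3% higher and 22.2% lower, beside 9.53% and 8.55% of all genes tested. Galnt2 (Entrez 108148; chr8:124231394-124345722, mm10, as for all genes below), a broadly acting initiator, had 1880 and 2134 counts in Pax5-/- cells and 953 in wild-type cells. Both Pax5-/- samples were far above the wild type, and the gene rose by 1.02 on the log2 scale (with an SE of 0.13, adjusted p = 0.0166). Galnt14 (Entrez 71685; chr17:73493207-73712138) had 70 and 72 counts in Pax5-/- cells and 11 in wild-type cells, a log2 change of 2.63 (SE 0.36, adjusted p = 0.0188). Galnt3 (Entrez 14425; chr2:66082766-66125056), the initiator that in humans and mice acts on a hormone of phosphate balance, had 71 and 76 counts in Pax5-/- cells and 20 in wild-type cells (log2 fold change 1.82, SE 0.31, adjusted p = 0.0309). The Galnt3 call was lost in DESeq2 (adjusted p = 0.0705). Per length, Galnt14 made up 2.96% and 2.78% of the GALNT total in Pax5-/- cells and 0.492% in wild-type cells.

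The 2 GALNT genes that fell encode isoforms whose human counterparts prefer peptides that already carry a sugar. Galnt10 (Entrez 171212; chr11:57645442-57787514) had 86 and 75 counts in Pax5-/- cells and 332 in wild-type cells, a log2 change of -2.09 (SE 0.19, adjusted p = 0.00847). Galnt12 (Entrez 230145; chr4:47091894-47123058) had 100 and 120 counts in Pax5-/- cells and 348 in wild-type cells (log2 fold change -1.71, SE 0.17, adjusted p = 0.00931). Galnt4 and Galnt7, of the same preference, were also below the wild type in both Pax5-/- samples but were not called. Galnt7 had 380 and 379 counts in Pax5-/- cells and 560 in wild-type cells (log2 fold change -0.61, SE 0.14, adjusted p = 0.0592), and Galnt4 had a log2 fold change of -0.88 (adjusted p = 0.0521). Galnt1, another broad initiator, had 892 and 933 counts in Pax5-/- cells and 978 in wild-type cells, and the 95% interval of its log2 fold change ran from -0.51 to 0.21. Galnt11 had 170 and 200 counts in Pax5-/- cells and 97 in wild-type cells and also missed the threshold (log2 fold change 0.88, adjusted p = 0.0540).

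The GALNT total was 148 and 154 CPM per kb in Pax5-/- cells and 141 in wild-type cells, while the shares within it differed. Galnt2 made up 47.8% and 49.4% of it in Pax5-/- cells and 25.6% in wild-type cells. Galnt12 made up 4.72% and 5.15% in Pax5-/- cells and 17.3% in wild-type cells, and Galnt10 1.91% and 1.52% in Pax5-/- cells and 7.78% in wild-type cells. Of the 10 GALNT genes that were not tested, 7 had no count in any library. Galnt6, Galnt16 and Galnt18 had between 0 and 7 counts per library.

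The next step of O-glycan synthesis is set by C1galt1, the core 1 synthase, which is outside the symbol rule but follows directly on the GALNT step. C1galt1 had 203 and 234 counts in Pax5-/- cells and 1309 in wild-type cells, and fell with a log2 change of -2.64 (SE 0.15, adjusted p = 0.00402). C1galt1c1, the chaperone that C1galt1 needs, had 123 and 145 counts in Pax5-/- cells and 160 in wild-type cells and was not called (log2 fold change -0.31, SE 0.19). Gcnt1 (Entrez 14537; chr19:17326141-17372844), which turns core 1 into the branched core 2, rose: it had 188 and 247 counts in Pax5-/- cells and 75 in wild-type cells (log2 fold change 1.48, SE 0.24, adjusted p = 0.0269). Per length, Gcnt1 stood at 6.16 and 7.71 CPM per kb in Pax5-/- cells and 2.48 in wild-type cells, and C1galt1 at 15.2 and 16.6 in Pax5-/- cells and 98.9 in wild-type cells. Transcripts of the core 1 and core 2 steps moved in opposite directions.

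Gcnt4, another core 2 enzyme, had 27 and 22 counts in Pax5-/- cells and 3 in wild-type cells, a pooled ratio of 7.88 (95% counting interval 2.54 to 39.5), and was not called (adjusted p = 0.0543). Gcnt2, the I-branching enzyme, had 4 and 2 counts in Pax5-/- cells and 2 in wild-type cells. Gcnt3 had no count in any library, and Gcnt7 had 1 count in wild-type cells alone. Gcnt1 made up 87.2% and 91.9% of the GCNT level per length in Pax5-/- cells and 92.3% in wild-type cells.

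Among the N-glycan branching genes, 3 late branching enzymes rose and the early enzymes Mgat1 and Mgat2 were not called. These are the 5 MGAT genes of 11 that were tested. The 3 made up 60% of the 5, beside 9.53% of all genes called higher. Mgat5 (Entrez 107895; chr1:127204919-127488334), which makes the branch that is favoured for poly-N-acetyllactosamine and bound by galectins, had 342 and 409 counts in Pax5-/- cells and 147 in wild-type cells (log2 fold change 1.30, SE 0.17, adjusted p = 0.0178). Mgat4a (Entrez 269181; chr1:37439340-37541060) and Mgat4b (Entrez 103534; chr11:50225335-50235103) make the branch on the other arm. Mgat4a had 539 and 529 counts in Pax5-/- cells and 284 in wild-type cells, with a log2 change of 0.86 (SE 0.16, adjusted p = 0.0344). Mgat4b had 315 and 364 counts in Pax5-/- cells and 190 in wild-type cells (log2 fold change 0.78, SE 0.16, adjusted p = 0.0428), which was not called in DESeq2 (adjusted p = 0.115) and limma-voom (adjusted p = 0.0597).

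Mgat1 opens the route from oligomannose to hybrid and complex N-glycans, and Mgat2 the step to complex ones. Mgat1 had 1496 and 1500 counts in Pax5-/- cells and 1312 in wild-type cells, and the 95% interval of its log2 fold change ran from -0.20 to 0.48. Mgat2 had 772 and 948 counts in Pax5-/- cells and 835 in wild-type cells, the Pax5-/- samples lying on either side of the wild type, with a log2 fold change of -0.01 that turned to 0.03 with library size alone and an interval from -0.46 to 0.44. Mgat3, which adds the bisecting residue, and the other 5 MGAT genes that were not tested (Mgat4c, Mgat4d, Mgat4e, Mgat4f and Mgat5b) had no count in any library. The counts of Mgat4a and Mgat5 were far above those of the overlapping genes 4930594C11Rik (5 and 2 in Pax5-/- cells, 5 in wild-type cells) and Gm8451 (18 and 19 in Pax5-/- cells, 25 in wild-type cells). The annotated spans of 12 of the 19 called genes overlap another RefSeq gene. Of 28 such overlapping genes, 3 were in the count table, these 2 and Mir5123 at 0 counts, and the other 25 have no count to set beside the enzymes.

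**Figure D2:**
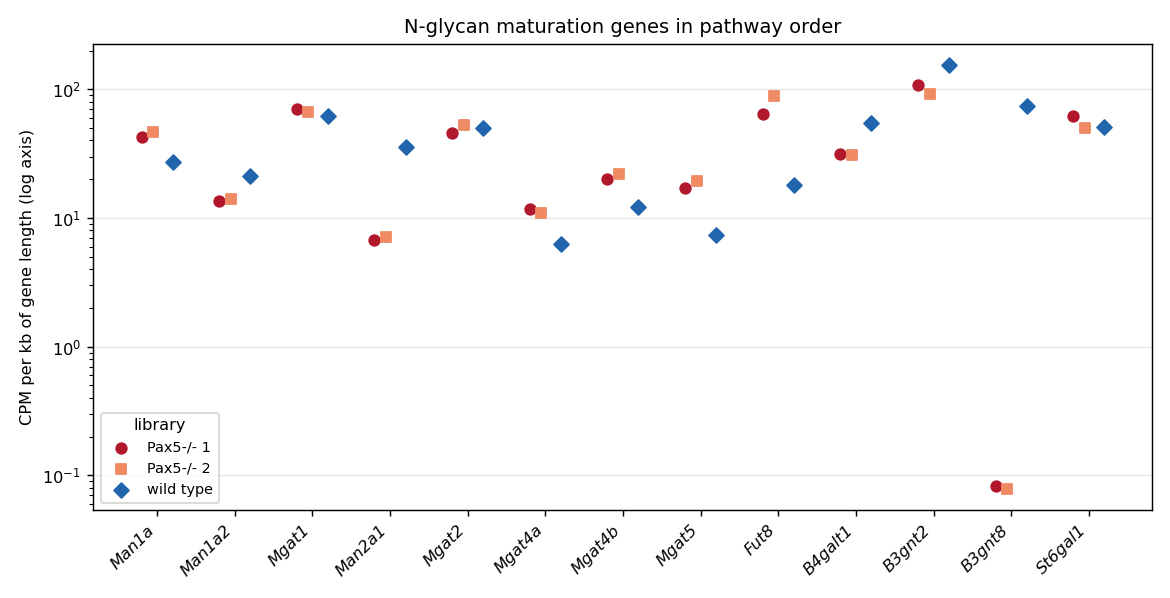
Level of N-glycan trimming, branching, fucosylation, extension and sialylation genes in CPM per kb of gene length (log axis), placed from left to right in the approximate order of the pathway, for Pax5-/- samples 1 and 2 (circles, squares) and the wild type (diamonds). Mgat4a, Mgat4b, Mgat5 and Fut8 lie above the wild type in both Pax5-/- samples, Man2a1, B4galt1 and B3gnt8 below it, and Mgat1 and Mgat2 close to it.

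The largest decrease among the 47 tested genes was in elongation, where 1 of 7 tested B3GNT genes rose and 2 fell. These were 14.3% higher and 28.6% lower, beside 9.53% and 8.55% of all genes tested. B3gnt8 (Entrez 232984; chr7:25627600-25629492), an enzyme that extends poly-N-acetyllactosamine on highly branched N-glycans and pairs with B3gnt2, had 1 and 1 counts in Pax5-/- cells and 895 in wild-type cells. The ratio of the wild type to Pax5-/- was 927 (95% counting interval 256 to 7670, adjusted p = 0.00234). It made up 0.0498% and 0.0566% of the B3GNT level per length in Pax5-/- cells and 28.5% in wild-type cells. Its level in wild-type cells, 140 CPM, stood beside a sum of 956 CPM for the 9 later B-cell markers and 77.1 CPM for the 10 neutrophil markers there. Igkc supplied 612.5 CPM of the B-cell sum and S100a9 36.2 CPM of the neutrophil sum, and the other genes of these lists 343 and 40.9 CPM. B3gnt3 (Entrez 72297; chr8:71691373-71702626), which extends core 1 O-glycans, had 9 and 5 counts in Pax5-/- cells and 61 in wild-type cells (log2 fold change -3.15, SE 0.48, adjusted p = 0.0236).

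B3gnt2, the main poly-N-acetyllactosamine enzyme, had 1953 and 1766 counts in Pax5-/- cells and 2780 in wild-type cells. Both Pax5-/- samples were below the wild type, and the adjusted p was just above the threshold (log2 fold change -0.63, SE 0.14, adjusted p = 0.0529; 0.0243 in DESeq2). B3gnt5, which starts lacto-series glycolipids, had 1493 and 1185 counts in Pax5-/- cells and 762 in wild-type cells and was not called (log2 fold change 0.77, SE 0.22, adjusted p = 0.0888; 0.0356 in DESeq2). B3gnt7 (Entrez 227327; chr1:86303221-86307305), an enzyme of keratan sulfate chains, rose, with 124 and 135 counts in Pax5-/- cells and 44 in wild-type cells (2.83-fold, log2 SE 0.23, adjusted p = 0.0252). B3gnt9 and B3gntl1 had 8 to 48 counts per library and were not called, and B3gnt4 and B3gnt6 had 0 to 4 counts and were not tested.

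Of 7 B4GALT genes 5 were tested, of which 2 fell and none rose (edgeR quasi-likelihood test). At an unadjusted p under 0.05, in DESeq2 and in limma-voom, 0 were higher. Of all genes tested, 8.55% were called lower and 9.53% higher. B4galt1 (Entrez 14595; chr4:40804602-40853984), the main galactosyltransferase of N-glycans, had 810 and 835 counts in Pax5-/- cells and 1383 in wild-type cells (log2 fold change -0.80, SE 0.13, adjusted p = 0.0256). B4galt4 (Entrez 56375; chr16:38742220-38769054), which galactosylates sulfated N-acetylglucosamine, had 20 and 18 counts in Pax5-/- cells and 75 in wild-type cells (log2 fold change -2.02, SE 0.32, adjusted p = 0.0265; 0.0795 in DESeq2, where the call was lost). B4galt5, a lactosylceramide synthase, differed between the Pax5-/- samples: it had 490 and 195 counts in samples 1 and 2 and 462 in wild-type cells. The 95% interval of its log2 fold change was -2.08 to 1.14, and sample 1, the higher one, is the sample with high interferon-response genes. B4galt3 had 157 and 190 counts in Pax5-/- cells and 140 in wild-type cells (interval -0.28 to 0.79), and B4galt7, which builds the proteoglycan linker, had 110 and 106 counts in Pax5-/- cells and 89 in wild-type cells. B4galt2 had no count in any library, and B4galt6 had 2 counts in wild-type cells alone.

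Among 5 B3GALT genes, B3galt5 (Entrez 93961; chr16:96235801-96319859), which makes type 1 chains, rose. It had 68 and 86 counts in Pax5-/- cells and 4 in wild-type cells, a log2 change of 4.17 (SE 0.46, adjusted p = 0.0121). B3galt4, the ganglioside galactosyltransferase, had 53 and 59 counts in Pax5-/- cells and 34 in wild-type cells, and B3galt6, of the proteoglycan linker, had 57 and 106 in Pax5-/- cells and 87 in wild-type cells. Neither was called. B3galt1 had no count in any library and B3galt2 had 1 in wild-type cells.

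**Figure D3:**
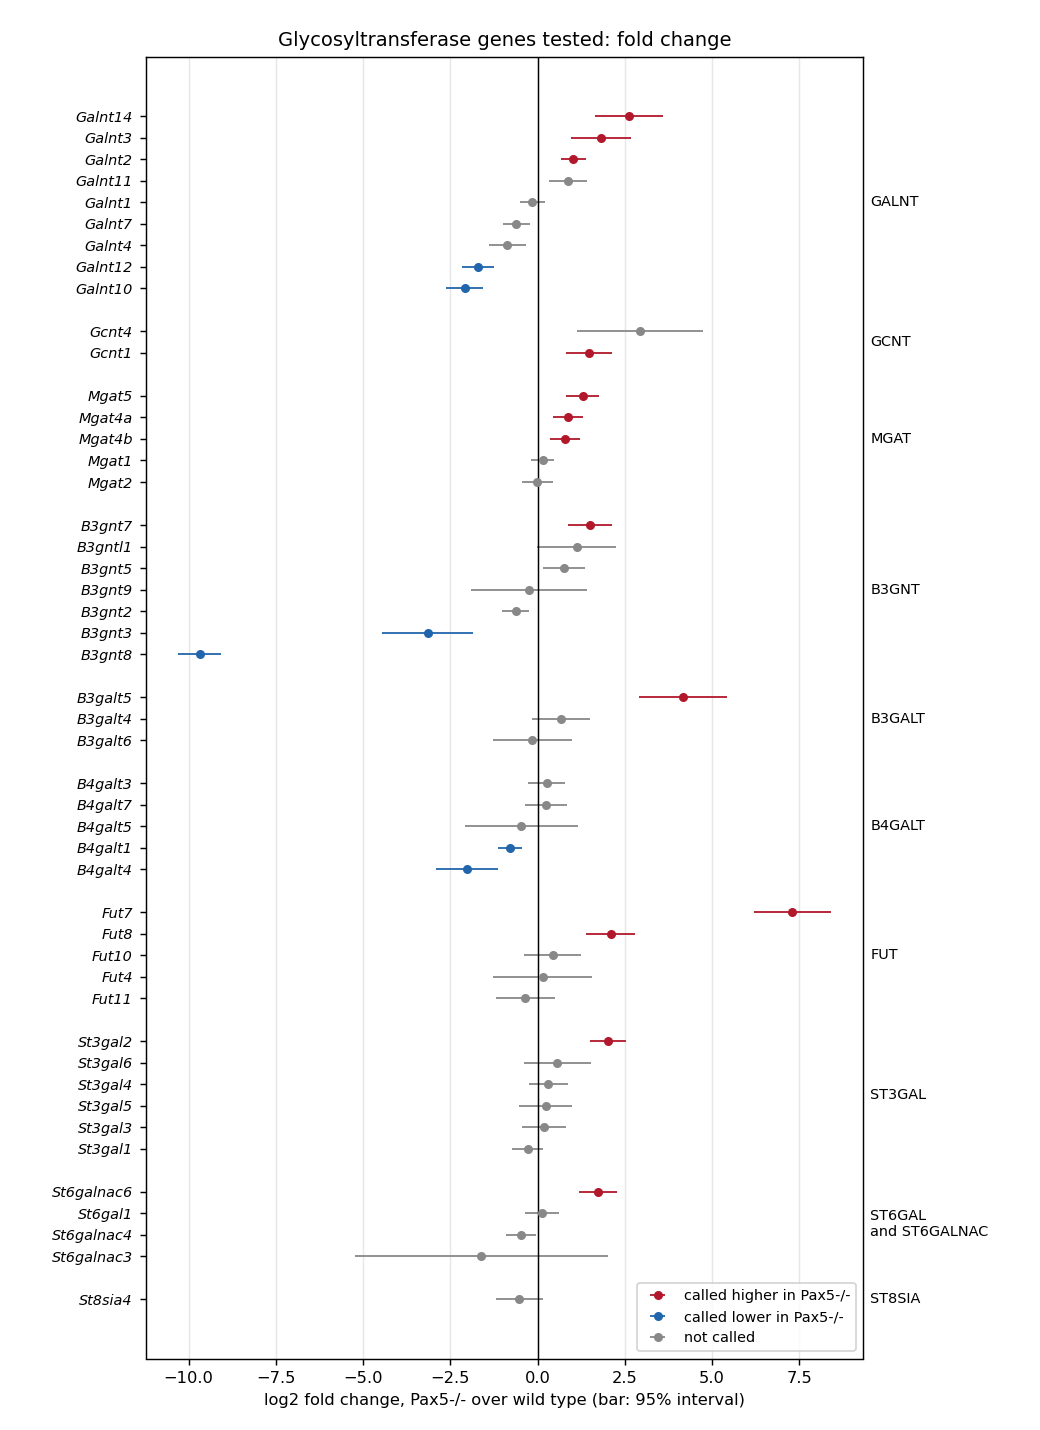
Log2 fold change of the 47 tested genes, Pax5-/- over wild type, with the 95% interval of the edgeR fit (bars), grouped by enzyme class; red marks genes called higher, blue genes called lower and grey genes not called. The MGAT (3 of 5 tested) and FUT (2 of 5) classes hold higher calls only, the B4GALT class (2 of 5) lower calls only, and the GALNT and B3GNT classes both. Of all genes tested, 9.53% were called higher and 8.55% lower. With an assumed coefficient of variation of 0.4, Fut7 alone kept its call among the MGAT, FUT and B4GALT genes. Fitted values of Fut7 and B3gnt8, which rest on 1 and 2 counts in the lower group, depend on the prior count.

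The largest increase among the 47 tested genes was in fucosylation, where 2 of 5 tested FUT genes rose and none fell (edgeR). At an unadjusted p under 0.05, in DESeq2 and in limma-voom, 0 were lower. Of all genes tested, 9.53% were called higher and 8.55% lower. Fut7 (Entrez 14347; chr2:25422351-25426374), the enzyme that completes sialyl Lewis x on selectin ligands of leukocytes, had 180 and 185 counts in Pax5-/- cells and 1 in wild-type cells. The pooled ratio came to 176 (95% counting interval 31.4 to 6975, adjusted p = 0.00402). Its level was 27.8 and 27.2 CPM in Pax5-/- cells and 0.156 CPM in wild-type cells. Several marker sums were also higher in both Pax5-/- samples. NK markers summed to 38.3 and 43.2 CPM in Pax5-/- cells, with Ncr1, Eomes and Tbx21 at 0, and to 4.52 CPM in wild-type cells. Nkg7 supplied 17.8 and 30.7 CPM in Pax5-/- cells and 0.780 CPM in wild-type cells. The other NK genes supplied 20.5 and 12.5 CPM in Pax5-/- cells and 3.74 CPM in wild-type cells. T-cell markers summed to 43.8 and 47.4 CPM in Pax5-/- cells and 20.7 CPM in wild-type cells. Most of this came from Lat (17.8 and 21.9 CPM in Pax5-/- cells, 13.3 in wild-type cells), Zap70 (17.4 and 18.5, 4.37) and Cd5 (7.72 and 6.17, 1.09). The other T-cell genes, with Cd3d, Cd3e, Cd3g, Cd4 and Cd8a among them, had 0 to 3 counts per Pax5-/- library and 0 to 7 in wild-type cells. Monocyte and macrophage markers summed to 177 and 57.7 CPM in Pax5-/- cells and 15.4 CPM in wild-type cells. A source of Fut7 in such cells was not tested. Fut4, the other enzyme of the selectin-ligand fucose, had 26 and 52 counts in Pax5-/- cells and 34 in wild-type cells, and was not called (interval -1.27 to 1.55).

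Fut8 (Entrez 53618; chr12:77237430-77475998), the sole enzyme of core fucose on N-glycans, had 1653 and 2402 counts in Pax5-/- cells and 457 in wild-type cells. It rose by 2.09 on the log2 scale (with an SE of 0.26, adjusted p = 0.0153), to 64.1 and 88.6 CPM per kb in Pax5-/- cells, against 17.9 in wild-type cells. Fut8 made up 75.4% and 80.4% of the FUT level per length in Pax5-/- cells and 71.2% in wild-type cells, and Fut7 16.6% and 12.5% in Pax5-/- cells and 0.315% in wild-type cells. Fut10 and Fut11 had 50 to 101 counts per library and were not called. Fut1, Fut2, Fut9 and the pseudogene Fut4-ps1 had no count in any library.

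**Figure D4:**
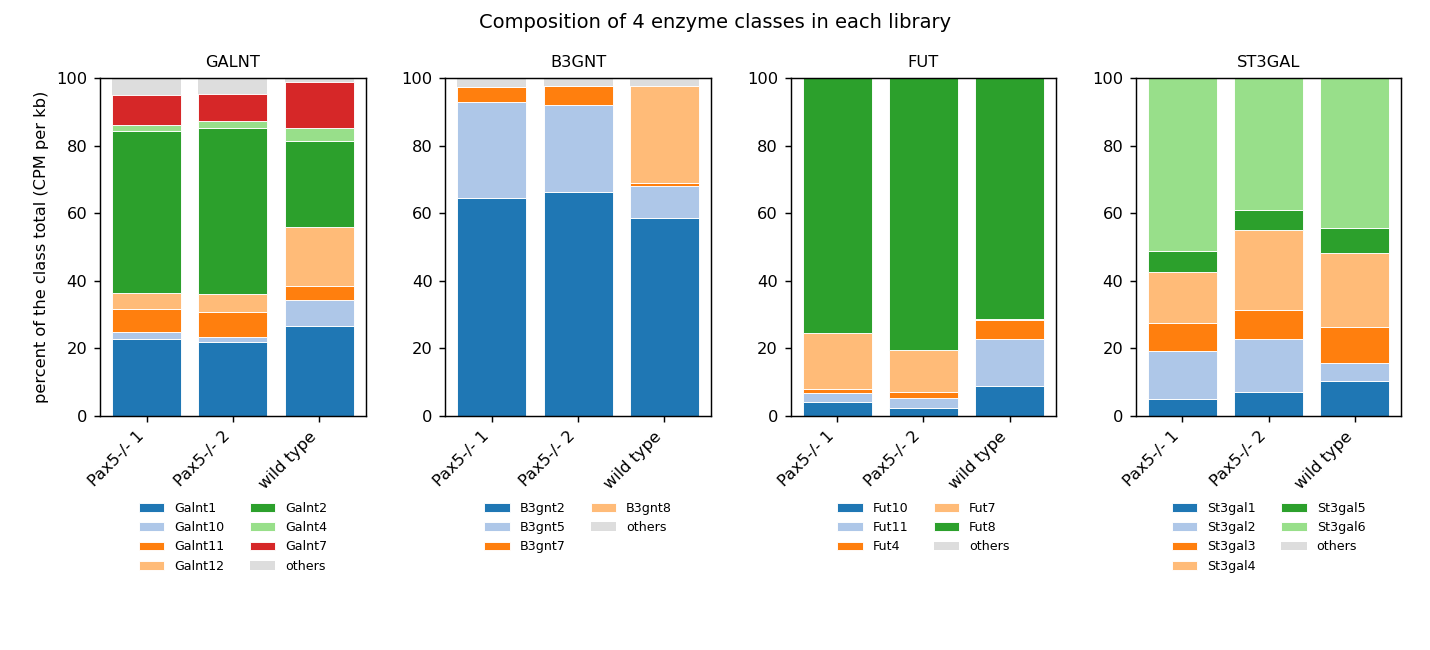
Share of each gene in the summed level per length (CPM per kb) of its class, as stacked bars for Pax5-/- samples 1 and 2 and the wild type, for the GALNT, B3GNT, FUT and ST3GAL classes. Galnt2 takes 47.8% and 49.4% in Pax5-/- cells and 25.6% in wild-type cells, and B3gnt8 takes 0.0498% and 0.0566% in Pax5-/- cells and 28.5% in wild-type cells.

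Of 11 sialyltransferase genes tested, 2 were called higher (18.2%, beside 9.53% of all genes) and 0 lower (beside 8.55% of all genes). The share called in either direction was 18.2%, beside 18.1% of all genes. All 6 ST3GAL genes were tested and 1 rose. St3gal2 (Entrez 20444; chr8:110919743-110974058), which caps core 1 O-glycans and gangliosides, had 456 and 412 counts in Pax5-/- cells and 104 in wild-type cells (log2 fold change 2.01, SE 0.19, adjusted p = 0.00891). St3gal1, the other core 1 sialyltransferase, had 204 and 241 counts in Pax5-/- cells and 262 in wild-type cells (interval -0.73 to 0.15). St3gal2 made up 14.4% and 15.7% of the ST3GAL level per length in Pax5-/- cells and 5.32% in wild-type cells. St3gal6, which acts on N-acetyllactosamine ends and led the class, had 579 and 364 counts in Pax5-/- cells (samples 1 and 2) and 309 in wild-type cells (log2 fold change 0.57, SE 0.35). It was higher in the sample with high interferon-response genes, and a link to these was not tested. St3gal3 and St3gal4, of the same substrate, and St3gal5, which makes the ganglioside GM3, were not called; their log2 fold changes were 0.18, 0.31 and 0.23.

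St6gal1, which makes the sialic acid linkage read by the B-cell lectin CD22, had 1930 and 1636 counts in Pax5-/- cells and 1581 in wild-type cells and was not called, with an interval from -0.35 to 0.61. Its level per length, 61.6 and 49.7 CPM per kb in Pax5-/- cells and 51.0 in wild-type cells, was the highest of all sialyltransferases in each library. St6galnac6 (Entrez 50935; chr2:32599709-32620809), a ganglioside and glycoprotein sialyltransferase, rose, with 209 and 243 counts in Pax5-/- cells and 65 in wild-type cells (log2 fold change 1.74, SE 0.20, adjusted p = 0.0130). Its neighbour St6galnac4, which sialylates sialylated core 1, had 382 and 360 counts in Pax5-/- cells and 497 in wild-type cells and was not called (log2 fold change -0.47, adjusted p = 0.115). St6galnac3 had 0 and 8 counts in Pax5-/- cells and 12 in wild-type cells and was not called. St6gal2, St6galnac1, St6galnac2 and St6galnac5 had no count in any library.

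Of the ST8SIA genes, which build sialic acid chains, only St8sia4, the polysialyltransferase of haematopoietic cells, was tested. It had 895 and 667 counts in Pax5-/- cells and 1087 in wild-type cells, below the wild type in both Pax5-/- samples but not called (log2 fold change -0.52, interval -1.19 to 0.15). St8sia1, the GD3 synthase, had 5 and 10 counts in Pax5-/- cells and 1 in wild-type cells. St8sia2 and St8sia6 had at most 2 counts per library, and St8sia3, St8sia5 and the non-coding St8sia3os had none.

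Genes that feed, trim and accompany these enzymes were taken from 8 lists. Of their 118 names 115 were found as distinct genes (3 were older names of listed genes) and 90 were tested, of which 10 rose, 11 fell and 69 were not called. The share called was 23.3% (11.1% higher and 12.2% lower), beside 18.1% of all genes (9.53% higher and 8.55% lower). With the assumed coefficient of variation of 0.4, 12 of these 21 calls were lost (B4galnt1, Casd1, Cd24a, Ggta1, Gmds, Lgals1, Man1a, Man1a2, Ptprc, Spn, Uap1 and Ugcg). Of the 22 genes that build and transfer the N-glycan precursor, none was called (edgeR quasi-likelihood test; 3 higher and 1 lower at an unadjusted p under 0.05, 0 called in DESeq2 and in limma-voom). The smallest p belonged to Alg3, a mannosyltransferase, at 170 and 179 counts in Pax5-/- cells and 257 in wild-type cells (adjusted p = 0.0639), and to Tusc3, a subunit of the transferase, at 235 and 257 counts in Pax5-/- cells and 169 in wild-type cells (adjusted p = 0.103).

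Of 9 trimming glycosidases 2 rose and 2 fell, beside 9.53% of all genes called higher and 8.55% lower. Man2a1, an alpha-mannosidase that acts between Mgat1 and Mgat2, fell most, with 267 and 295 counts in Pax5-/- cells and 1388 in wild-type cells (log2 fold change -2.36, SE 0.14, adjusted p = 0.00415). Man2a2, of the same list, had 513 and 648 counts in Pax5-/- cells and 670 in wild-type cells and was not called (log2 fold change -0.26, SE 0.18). Per length Man2a2 stood at 12.1 and 14.5 CPM per kb in Pax5-/- cells, and Man2a1 at 6.78 and 7.13. In wild-type cells they stood at 15.9 and 35.6. The mannosidases that act before Mgat1 moved in both directions. Man1c1 had 57 and 95 counts in Pax5-/- cells and 10 in wild-type cells (log2 fold change 2.85, SE 0.52, adjusted p = 0.0346; 0.0763 in limma-voom, where the call was lost). Man1a had a log2 change of 0.71 (SE 0.14, adjusted p = 0.0442) and Man1a2 one of -0.63 (SE 0.13, adjusted p = 0.0476; 0.0609 with library size alone, where the call was lost).

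Of 14 other Golgi transferases tested, 3 rose and 2 fell, C1galt1 among them. The shares of all genes tested were 9.53% higher and 8.55% lower. Ggta1, which adds the alpha-galactose end absent from human cells, had 1357 and 1341 counts in Pax5-/- cells and 287 in wild-type cells (log2 fold change 2.18, SE 0.15, adjusted p = 0.00503). B4galnt1, which makes the gangliosides GM2 and GD2, had 841 and 1040 counts in Pax5-/- cells and 402 in wild-type cells (log2 fold change 1.17, SE 0.18, adjusted p = 0.0245). B4galnt4, which ends chains with N-acetylgalactosamine, had 61 and 100 counts in Pax5-/- cells and 0 in wild-type cells (adjusted p = 0.0137). It was called higher, with a ratio of 25.9 when 3 counts are taken for the wild type. The lower limit of the exact counting interval, at 0 wild-type counts, was 20.8. Ugcg, which starts most glycolipids, fell by a log2 value of 0.79 (with an SE of 0.14, adjusted p = 0.0326) and was not called in DESeq2.

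Of 10 genes of sialic acid metabolism tested, 2 rose and 2 fell, beside 9.53% of all genes called higher and 8.55% lower. Cmah, which turns N-acetyl- into N-glycolylneuraminic acid, had 1842 and 1881 counts in Pax5-/- cells and 243 in wild-type cells (log2 fold change 2.89, SE 0.14, adjusted p = 0.00337). Siae removes O-acetyl groups from sialic acid and Casd1 adds them. Siae had 375 and 359 counts in Pax5-/- cells and 59 in wild-type cells (adjusted p = 0.00507), and Casd1 had 106 and 108 counts in Pax5-/- cells and 221 in wild-type cells (adjusted p = 0.0259; 0.073 in DESeq2, where the call was lost). Neu3, a sialidase of gangliosides, had 2 and 3 counts in Pax5-/- cells and 25 in wild-type cells (adjusted p = 0.0357; 0.168 in DESeq2, where the call was lost).

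Of 22 genes of sugar donor supply tested, none rose and 2 fell (edgeR quasi-likelihood test), beside 9.53% of all genes called higher and 8.55% lower. At an unadjusted p under 0.05, 3 were higher, and 0 were called higher in DESeq2 and in limma-voom. Gmds, the entry enzyme of GDP-fucose synthesis, had 173 and 191 counts in Pax5-/- cells and 378 in wild-type cells (log2 fold change -1.11, SE 0.14, adjusted p = 0.0166), opposite in direction to Fut7 and Fut8. Uap1, of UDP-N-acetylglucosamine synthesis, had a log2 fold change of -0.70 (adjusted p = 0.0467), a call lost with library size alone, in DESeq2 and in limma-voom. Slc35c1, the Golgi GDP-fucose transporter, had 440 and 550 counts in Pax5-/- cells and 362 in wild-type cells and was not called (adjusted p = 0.207). Of the 9 carbohydrate sulfotransferases only Gal3st4 and Chst10 were tested, at 0 to 15 counts per library, and neither was called.

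Among the proteins that carry or read these glycans, Spn (CD43) and Ptprc (CD45), large O-glycosylated surface proteins, rose, at log2 fold changes of 0.81 (SE 0.11, adjusted p = 0.0203) and 0.80 (SE 0.11, adjusted p = 0.0198). Cd44, the hyaluronan receptor, had 123 and 106 counts in Pax5-/- cells and 997 in wild-type cells (log2 fold change -3.17, SE 0.18, adjusted p = 0.00404). Cd24a fell by a log2 value of 1.40 (with an SE of 0.11, adjusted p = 0.00624). Selplg, the P-selectin ligand that Fut7 modifies, had 698 and 713 counts in Pax5-/- cells and 585 in wild-type cells and was not called (log2 fold change 0.22, SE 0.14). Among the lectins, Lgals1 (galectin-1) rose and had 6021 and 6054 counts in Pax5-/- cells and 1811 in wild-type cells (log2 fold change 1.69, SE 0.11, adjusted p = 0.00468). Lgals9 had 3715 and 1846 counts in Pax5-/- cells and 8156 in wild-type cells and was not called (log2 fold change -1.59, SE 0.45). Lgals8, at 937 and 494 counts in Pax5-/- cells and 371 in wild-type cells, was not called either (log2 fold change 0.91, SE 0.46).

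**Figure D5:**
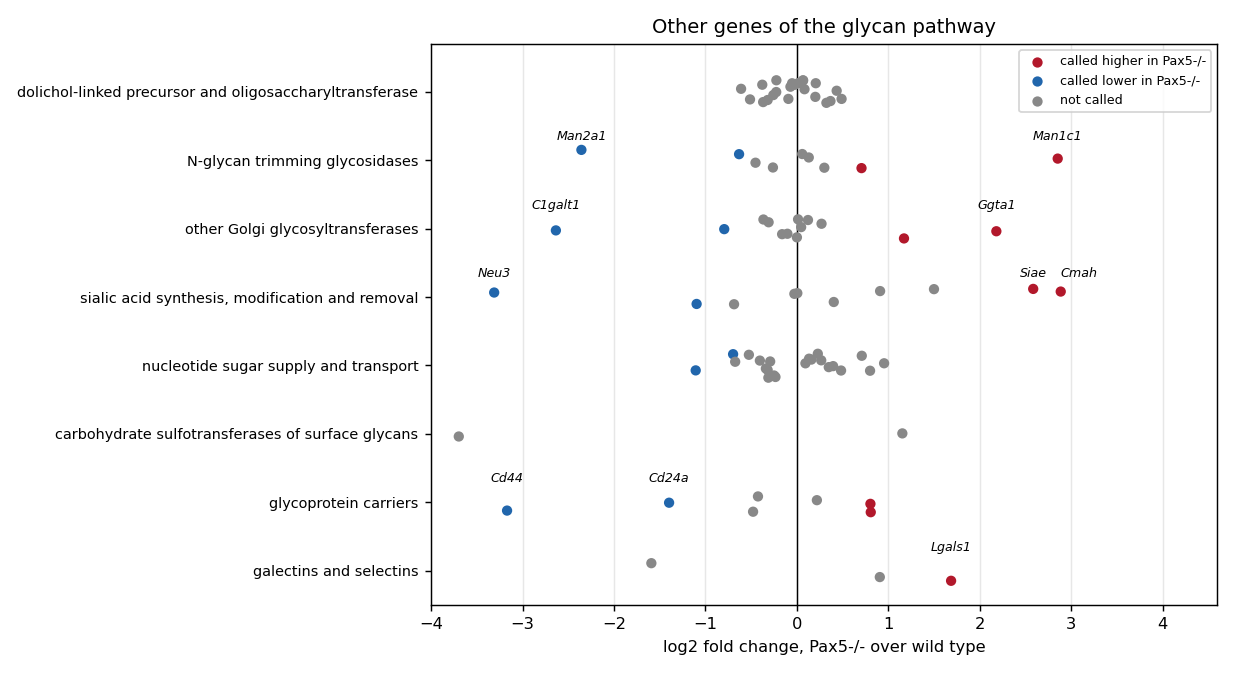
Log2 fold change, Pax5-/- over wild type, of tested genes in 8 lists of the glycan pathway, 1 point per gene; red marks genes called higher, blue genes called lower and grey genes not called, and B4galnt4, with no count in wild-type cells, and 1 gene not reported here are left out. No gene of the N-glycan precursor list is called, while Cmah, Siae, Man1c1 and Ggta1 lie at 2.18 or above and Neu3, Cd44, C1galt1 and Man2a1 at -2.36 or below.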

How the data were processed

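RNA sequencing was done on total RNA of 2 Pax5-/- samples and 1 wild-type sample of mouse pro-B cells, grouped by the genotype in the labels. The deposited values are whole-number counts per gene made by the authors with featureCounts on mm10, per the submitters' processing notes; aligner, gene models and strandedness were not given in the sources used here, so reads of antisense partners cannot be told apart. Per the file headers, rows are Entrez numbers with a gene length. Symbols, coordinates and promoter windows came from RefSeq GRCm38.p6, the assembly of mm10; 25275 of 27179 numbers (93%) matched.

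Counts were filtered with filterByExpr (minimum count 10), scaled by TMM and tested with edgeR 4.0.16 (glmQLFit and glmQLFTest, R 4.3.3), Pax5-/- over wild type, with Benjamini-Hochberg adjustment over all 11783 genes tested and a threshold of 0.05. The fit has 1 residual degree of freedom, from the 2 Pax5-/- samples, moderated with 3.15 prior degrees of freedom; the common biological coefficient of variation was 0.203. The labels call the Pax5-/- samples independent, and p-values measure the spread between these samples only. CPM are TMM-scaled, and a level per length is CPM per kb of the deposited gene length, computed here. Library totals were 6487846 and 6697879 counts in Pax5-/- cells and 6530057 in wild-type cells, where a count of 0 allows up to 3 counts, or 0.463 and 0.441 CPM in Pax5-/- cells and 0.468 CPM in wild-type cells. Where a group held 1 to 3 counts, a ratio of pooled CPM has an exact Clopper-Pearson 95% interval. Where it held 0, the ratio takes 3 counts over the group and is given with the lower limit of that interval. The intervals cover counting error only. Alternatives were RLE scaling, library size alone, no filter, a minimum count of 30, DESeq2 1.42.0, limma-voom (limma 3.58.1), an assumed coefficient of variation of 0.4 and leaving out each Pax5-/- sample. The test was checked on simulated data.

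The symbol rule, the 8 pathway lists and the marker lists were chosen with earlier results of these data known. Values and tests are given for called genes and for genes not called with a mean of at least 20 CPM. Of each pathway list up to 4 called genes with a mean of at least 1 CPM are given, ordered by fold change, or, with none called, the 2 of smallest p. Galnt4, Gcnt4 and other genes below those limits, C1galt1c1, Ugcg, Slc35c1, Selplg, Chst10, Ifit1, Siglech and Ccr9 were named after their values were seen. So were Man2a2, Lgals8, Lgals9, Nkg7, Lat, Zap70 and Cd5. The results of 2 genes of these lists are not reported here.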

Additional observations from a re-analysis of the deposited data

How the results depend on the processing

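The count of called glycosyltransferase genes, 19, was 24 with RLE scaling, 19 with library size alone, 23 with no filter, 20 with a minimum count of 30, 18 in DESeq2 and 18 in limma-voom. All 19 calls were kept under the scalings and filters, 16 in DESeq2 (B4galt4, Mgat4b and Galnt3 were lost) and 18 in limma-voom (Mgat4b was lost). RLE scaling added B3gnt2, Galnt4, Galnt7, Galnt11 and Gcnt4, and DESeq2 added B3gnt2 and B3gnt5. With an assumed coefficient of variation of 0.4 the calls were 6 (3 higher, 3 lower), 12.8% of the tested enzymes. Those of all genes were 1206 (623 higher, 583 lower), or 10.2%, in place of 2130. Leaving out either Pax5-/- sample under that assumption, an alternative added after sample 1 was seen to stand apart in interferon-response genes, left 3 to 4 calls (2 higher in each case, 1 to 2 lower), and over all genes 909 to 1005 (466 to 523 higher, 443 to 482 lower). The lone Pax5-/- sample is then assumed to vary as much as wild-type cells. Mgat2, not called, reversed to a log2 fold change of 0.0265 with library size alone. Scaling moved the median log2 fold change of all genes by at most 0.04. No paired analysis was possible because the groups share only replicate number 1. Counts of 10 or fewer, as in 12 genes here, are too few at this depth to test.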
